A study of Mus musculus with 2 samples.

Results

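The genes followed here encode small GTPases known or thought to be inducible by serum, namely Gem, Rrad, Rhob, Rnd1, Rnd3, Rhou, Arl5b, Arl4a, Arl4d and Rasd1. They were chosen by gene symbol, without a threshold on any signal, and every probe other than a control probe that carried one of the symbols was used. This gave 10 of 28233 genes and 15 of 39429 probes. The 5 genes Gem, Rhob, Rnd1, Arl4a and Arl4d had 2 probes each, and the others had 1.

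Small GTPases are switch proteins that bind their partners when loaded with GTP and let go after GTP is hydrolysed. Most are controlled by exchange factors and GTPase-activating proteins, but the Rnd proteins hydrolyse GTP hardly at all and the RGK proteins Gem and Rrad bind nucleotides in an unusual way, so that the amount of protein, and with it transcription, carries much of their regulation. In fibroblasts, serum and growth factors are known to induce several of these genes within the hour, and the proteins act on actin, adhesion, calcium channels and membrane traffic.

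The RNA came from 1 immortalized line of mouse embryonic fibroblasts (strain C57BL/6 x B6:129 Ola) that carries 2 floxed alleles of THOC5, a subunit of the THO complex in mRNA processing and export, and a tamoxifen-activated Cre expressed from the Rosa26 locus. Control cells had the same alleles and the same Cre but no tamoxifen, and THOC5-depleted cells had tamoxifen for 2 days by the labels. The study's cell culture methods describe a shorter tamoxifen treatment with further culture, while its chromatin precipitation methods and several figure legends give 2 days, as the labels do. Both describe serum starvation before stimulation, so that the unstimulated cells were starved if either schedule was used. For each, 1 dual-color Agilent array compared unstimulated cells, labelled with Cy3, with cells given fetal calf serum (FCS) for 1 h, labelled with Cy5, with no array of exchanged dyes used here. With 1 array per condition there was no replicate and no test, so loss of THOC5, tamoxifen, culture and array position cannot be told apart, nor can serum and dye within an array.

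Thoc5 itself checked the labels, being 7.08-fold lower in unstimulated and 5.38-fold lower in stimulated cells of the THOC5-depleted culture, and the 9 fibroblast markers examined were above background in all 4 channels. After Aquantile normalization between the arrays, 2 of these 9 were over 2-fold lower in unstimulated THOC5-depleted cells, Pdgfra by 2.43-fold and Col3a1 by 2.19-fold, and 0 of 9 were 2-fold apart in stimulated cells. Pdgfra was also the only one of the 9 with a serum ratio past 2-fold in either direction, 0.479 in control and 0.886 in THOC5-depleted cells. The part of these shifts in the results was not tested. Of 13 markers of epithelial, endothelial, leukocyte and skeletal muscle cells, 6 were above background in all 4 channels, 1 (Epcam) on the control array alone and 4 (Ptprc, Cd68, Des and Ckm) on the THOC5-depleted array alone. Cdh1 and Myog were above background nowhere. After the same normalization, and at low signals, Epcam was lower in THOC5-depleted cells by at least 2.66-fold (unstimulated) and 2.45-fold (stimulated), and Cdh5 by 2.17-fold (stimulated). Cd68 was higher there by at least 1.23 and 1.04 on the log2 scale, and Ckm by at least 1.45 in unstimulated cells. The other markers of these cell types were not 2-fold apart. The summed signal of the 13 markers was 7531 in unstimulated and 9537 in stimulated control cells, and 8576 and 9755 in THOC5-depleted cells, of which the single leukocyte marker Itgam made up 83.8% to 89.2%, and their part in the results was not tested. Each of the 15 probes was a single spot, and none of these spots was an outlier or saturated on either array. For scale, the log2 ratio of probes printed as 10 spots varied from spot to spot with a median SD of 0.027 (control array) and 0.030 (THOC5-depleted array) and a 95th percentile of 0.149 and 0.158, which covers error within an array only.

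The probes are 60 bases long and their positions are those of the authors' files on mm9. Parts of 6 of them are shown, because what the probes of one gene share, and where they lie in the transcript, bears on how far they can be read as separate measurements. The 5′ probe of Arl4d ends and its 3′ probe begins with the same stretch of 17 bases, in capitals (windows chr11:101529019-101529048 and chr11:101529032-101529061, plus strand):
Arl4d 5′ probe, last 30 bases: attgtagatccccGGCCCTTTTTATAAGCC
Arl4d 3′ probe, first 30 bases: GGCCCTTTTTATAAGCCtcgagtgtcctct
These probes are therefore not separate readings of 2 regions. The Gem 3′ probe and the Rhou probe hold AATAAA, the canonical polyadenylation signal, in capitals (chr4:11642109-11642138 and chr8:126187744-126187773, plus strand):
Gem 3′ probe: gatttggggtcaAATAAAgctgagctagaa
Rhou probe: aaatgagttactatgaAATAAAttctgacc
The hexamer occurred in 2 of the 15 probes and in 12.6% of all probes. The Rhob probes start 1554 bases apart in the transcript, and their first 30 bases were (chr12:8506335-8506364 and chr12:8504781-8504810, minus strand):
Rhob 5′ probe: cagtaaagacgaattccccgaggtgtacgt
Rhob 3′ probe: caacagtgtgaattttttctttaaatttgt
The 5′ probe of Rhob was 55% G and C and the 3′ probe 35%, over their whole length.

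Promoters from RefSeq (GRCm38.p6, 250 bases before to 50 after a start) were at hand for 6 of the 10 genes: Arl5b, Arl4d, Arl4a, Rhob, Rhou and Rnd3. They were searched on both strands for letters known from serum-responsive promoters, and 30 bases around the rarer matches are shown. The cyclic AMP response element (CRE), TGACGTCA, was in the promoters of Arl5b (chr2:15055188-15055217, plus strand) and Arl4d (chr11:101665504-101665533, plus strand), and the CArG box, to which serum response factor binds, was in that of Rnd3 (chr2:51149192-51149221, minus strand). The capitals mark the motif:
Arl5b, CRE from 121 bases before the start: caggcgcccgcTGACGTCAgcgcgccgacg
Arl4d, CRE from 26 bases before the start: gccgcgtcgtgTGACGTCAcgagagggttt
Rnd3, CArG box from 100 bases before the start: ctcccaggctCCATAAAAGGggaggaggcg
Of 32851 promoters of the same length, 1.79% held the CRE and 1.63% a CArG box. The AP-1 site TGANTCA, in 7.81% of all, was found in 1 of the 2 promoters of Arl4a, and TATAAA, in 13.6% of all, in Rnd3. A CArG box may contain TATAAA, but in Rnd3 these were separate matches, and the CRE and the AP-1 letters cannot match at the same place. A match is a description of the letters and not a binding site that was measured.

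In control cells, 5 of the 9 genes with a measured ratio reached a serum ratio (Cy5 over Cy3 processed signal) of 2, namely Gem, Arl5b, Rnd1, Arl4d and Rrad, whereas 2.65% of 18770 genes did so. In THOC5-depleted cells 3 did, namely Gem, Rhob and Arl4d, against a background of 0.955% of 18531 genes. Rhob passed by its 3′ probe alone, since the mean of its probes gave a log2 serum ratio of 0.74 there, and by that reading the count was 2. When that array was centred on its probes for added RNAs of known amount (spike-in centring), the count was 1 (0.561% of all genes). It was 5 with the spread of log2 ratios scaled between arrays (2.02%). A ratio of 0.5 or less was seen for 0 of the 9 genes on either array (backgrounds of 1.73% for control and 0.378% for THOC5-depleted cells). For genes with 2 probes, the brighter one was counted. The log2 serum ratios of the 9 genes had medians of 1.18 (control) and 0.76 (THOC5-depleted), while the medians over all genes were -0.02 and -0.01. The genes were picked as inducible, so that a share above the background was built into the choice.

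**Figure D1:**
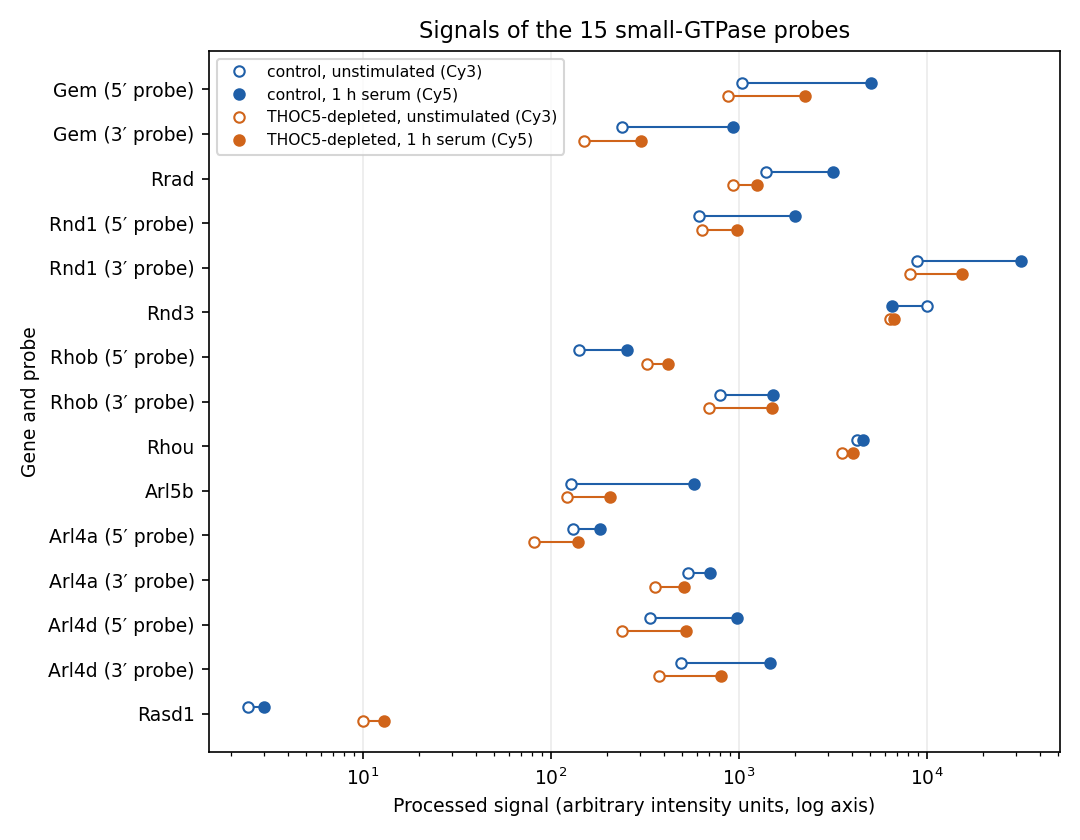
Processed signal of each of the 15 probes (x axis, arbitrary intensity units, log axis) in unstimulated (open, Cy3) and serum-stimulated cells (filled, Cy5) of the control (blue) and THOC5-depleted (orange) arrays, not scaled between arrays. The lines that join open to filled points are longest for Gem, Arl5b and Rnd1 in control cells, Rnd3 runs the other way there, and the 3 lower Rasd1 signals were not well above background.

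Among the RGK proteins, which bind the beta subunits of voltage-gated calcium channels and inhibit them, Gem had the largest serum ratio of the 9 measured genes on the control array by its brighter probe, while by the mean of its probes its log2 ratio of 2.11 was below the 2.18 of Arl5b. Its 5′ probe, which starts at base 1808 of the transcript, read 1049 in unstimulated and 5060 in stimulated control cells, and 878 and 2243 in THOC5-depleted cells. The ratio on the control array was thus 4.82, rank 99 among all genes measured, and that on the other array 2.55, which is 1.89-fold less. The 3′ probe, 389 bases downstream and with the AATAAA shown above, read 240 and 933 in control cells, then 151 and 302 after depletion, with ratios of 3.88 and 1.995. Gem therefore reached 2 in THOC5-depleted cells by its 5′ probe and by the mean of its probes (log2 ratio 1.17), but was just short of it by the 3′ probe. Both probes put Gem higher after serum on both arrays, and both gave the smaller ratio in THOC5-depleted cells, by 1.89-fold and 1.94-fold.

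Rrad, the other RGK member, read 1396 in unstimulated and 3164 in stimulated control cells. In THOC5-depleted cells the signals were 935 and 1248. The serum ratios of 2.27 and 1.34 made a 1.70-fold reduction (probe at chr8:107152532-107152591). The starting signal of Rrad was lower in THOC5-depleted cells and the stimulated one lower still.

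Rnd1 and Rnd3, which lack GTPase activity and oppose RhoA at the actin cytoskeleton, went apart. The 3′ probe of Rnd1 read 8903 in unstimulated and 31840 in stimulated control cells, and 8168 and 15374 in THOC5-depleted cells. These signals gave serum ratios of 3.58 and 1.88, a 1.90-fold reduction. The 5′ probe, 989 bases upstream, read 614 and 1988 in control and 637 and 986 in THOC5-depleted cells, with ratios of 3.24 and 1.55, 2.09-fold less. The unstimulated signals of Rnd1 were alike between the arrays, and the stimulated signals were apart.

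Rnd3 read 10109 in unstimulated and 6554 in stimulated control cells, and 6354 and 6716 in THOC5-depleted cells. The serum ratios were 0.648 and 1.06, or -0.63 and 0.08 on the log2 scale. It was the one gene of the 9 with less signal after serum in control cells. In THOC5-depleted cells its 2 signals differed by less than the 95th percentile of the spread between spots. Without dye normalization its control log2 ratio turned to 0.30, where the median of all genes moved to 0.82, and with spike-in centring, in which the THOC5-depleted array is shifted by 0.24 (log2) for all genes alike, the mean difference of the probes for added RNAs of known amount, the log2 ratio in THOC5-depleted cells turned to -0.16. Rnd3 is also the gene with the CArG box shown above, among the 6 genes whose promoters were at hand.

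Rhob, an endosomal relative of RhoA with a short-lived mRNA and protein, had probes that did not give the same account. The 3′ probe, the brighter one, read 802 in unstimulated and 1517 in stimulated control cells, and 699 and 1511 in THOC5-depleted cells. These ratios of 1.89 and 2.16 differed by 1.14-fold, with the larger one in THOC5-depleted cells. The 5′ probe read 142 and 255 on the control array and 327 and 422 on the other, with ratios of 1.80 and 1.29. In control cells the probes thus gave like ratios, and in THOC5-depleted cells they were 0.74 apart on the log2 scale. The difference between the arrays in log2 serum ratio was 0.48 by the 5′ probe and -0.19 by the 3′ probe, a gap that 3.95% of the 3188 genes with exactly 2 measured probes reached. With spike-in centring, the 3′ probe's difference turned to 0.053. Without that centring, the mean over both probes was 0.15.

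Rhou, a Cdc42-like protein known as a Wnt-induced gene, read 4255 in unstimulated and 4576 in stimulated control cells, and 3551 and 4082 in THOC5-depleted cells. The ratios were 1.08 and 1.15, so that the 4 signals of this gene lay close together. The difference between these log2 ratios was -0.10, and it turned to 0.15 with spike-in centring.

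Among the Arf-like proteins, Arl5b, which acts at the trans-Golgi network, had the largest loss of serum ratio. It read 129 in unstimulated and 583 in stimulated control cells, and 123 and 207 in THOC5-depleted cells (chr2:15000722-15000781, from base 3497 of the transcript). The ratio of 4.52 on the control array, rank 108 among all genes, stood against 1.69 on the other, a 2.68-fold reduction. Its unstimulated signals were alike, and the stimulated control signal was far above the other 3.

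The Arl4 proteins recruit exchange factors of the cytohesin family to the plasma membrane. The 3′ probe of Arl4d read 493 in unstimulated and 1465 in stimulated control cells, and 375 and 810 in THOC5-depleted cells, with ratios of 2.97 and 2.16. Its 5′ probe, which overlaps it, read 337 and 981 in control and 241 and 528 in THOC5-depleted cells, with ratios of 2.91 and 2.19. Arl4d thus had the smallest reduction of the genes that reached a ratio of 2 in control cells, 1.38-fold by the 3′ probe.

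Arl4a stayed below a serum ratio of 2 by either probe on both arrays. The 3′ probe read 537 in unstimulated and 707 in stimulated control cells, and 360 and 515 in THOC5-depleted cells, with ratios of 1.32 and 1.43. The 5′ probe, 510 bases upstream, read 132 and 183 in control and 81.3 and 140 in THOC5-depleted cells, with ratios of 1.39 and 1.73. In THOC5-depleted cells the 3′ probe was at the 95.4th percentile of all genes, and the 5′ probe was past a ratio of 1.5, which 3.48% of genes reached. Neither probe of Arl4a gave the smaller ratio in THOC5-depleted cells, although with spike-in centring the log2 difference of the 3′ probe, -0.12, turned to 0.13.

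Rasd1, a Ras-related protein named for its induction by dexamethasone, was not well above background in either channel of the control array (2.46 in unstimulated and 2.98 in stimulated cells). In THOC5-depleted cells it read 10.03 in unstimulated cells, not well above background, and 13.0 in stimulated cells, just above it. Its serum ratio there was at least 1.20, which depends on this one signal near the limit of detection, and no ratio could be given for control cells. If a ratio of 2 in control cells is asked for, the name inducible was thus not met at 1 h by Rnd3, Rhou and Arl4a, nor by Rhob, which at 1.89 was just under it, and for Rasd1 it is unknown.

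**Figure D2:**
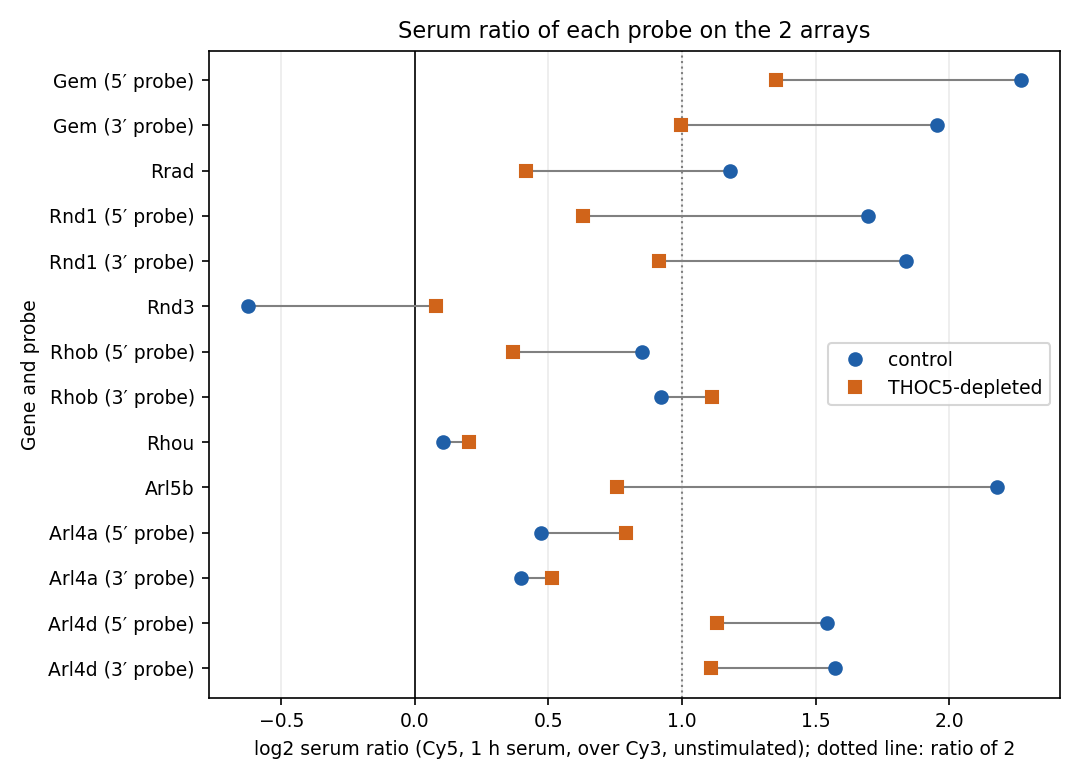
Log2 serum ratio (x axis) of the 14 probes of 9 genes on the control (circles) and THOC5-depleted (squares) arrays, with the dotted line at a ratio of 2. The squares lie left of the circles for Gem, Rrad, Rnd1, Arl5b and Arl4d, and right of them for Rnd3, Rhou and Arl4a, while the Rhob probes point in opposite directions.

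The loss of serum ratio was next compared with that of all genes. Of the 9 genes, 5 had a serum ratio at least 1.3 times higher in control cells, against 8.76% of 18005 genes, and 1 (Arl5b) at least 2 times higher, against 1.28%. With the spread of log2 ratios scaled between arrays, the first count was 4 (10.3% of all genes), since the log2 difference of Arl4d was 0.051 in place of 0.46. The second count was 4 with spike-in centring (2.42% of all genes) and 3 without dye normalization (1.73%). In the other direction, Rnd3 was the 1 gene whose ratio was larger by 1.3 times or more after depletion, against 10.8% of all genes. The 5 genes with the loss were the same 5 that reached a ratio of 2 in control cells. Among the 479 genes of the array that did so, however, 85.2% lost 1.3-fold and 40.3% lost 2-fold, beside 5 of 5 and 1 of 5 of the small GTPases, so that their loss was not apart from that of induced genes in general. The median loss of the 5 genes was 0.92 on the log2 scale (range 0.46 to 1.42), and that of the 479 genes was 0.89. The control ratio enters both the choice of induced genes and the loss, so that some loss is built into such a set.

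**Figure D3:**
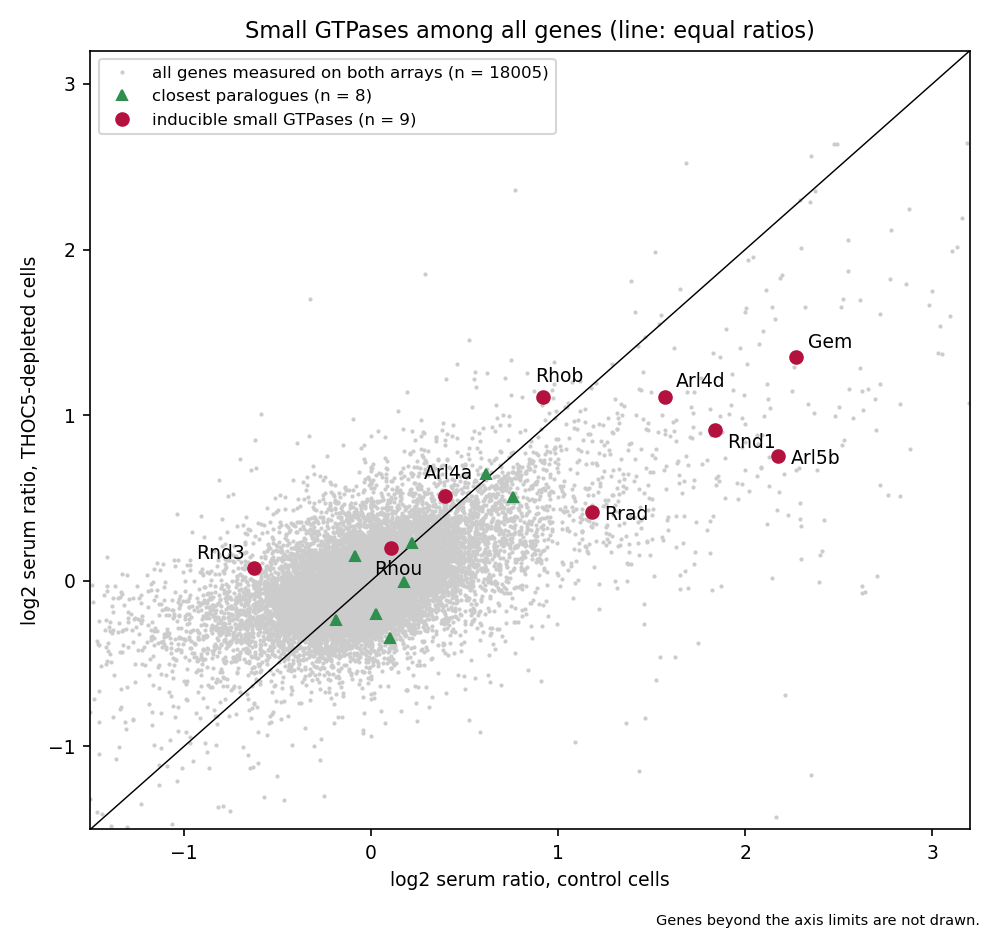
Log2 serum ratio in THOC5-depleted cells (y axis) against that in control cells (x axis) for 18005 genes measured on both arrays (grey), 9 small GTPases (red) and 8 closest paralogues (green triangles), with the line of equal ratios. Gem, Rnd1, Arl5b, Arl4d and Rrad lie right of the grey mass and below the line, and the paralogues lie within the mass.

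The arrays were then set side by side within each treatment, after Aquantile normalization, which gives the arrays the same distribution of mean log2 signal. In unstimulated cells, 0 of the 9 genes differed by 2-fold (background 4.29%, of which 2.23% were higher and 2.06% lower in THOC5-depleted cells), and the log2 difference (THOC5-depleted minus control) ran from -0.35 for Rnd3 to 0.19 for Rnd1. The probes disagreed for Rhob, with 1.44 by the 5′ probe against 0.09 by the 3′ probe, and for Gem, with 0.053 by the 5′ probe, -0.44 by the 3′ probe and -0.19 by their mean. Arl5b differed by 0.15, Arl4d by -0.12 and Rrad by -0.27. In stimulated cells, 2 of the 9 genes were 2-fold or more lower in THOC5-depleted cells, Arl5b by 2.41-fold and Rrad by 2.05-fold (background 2.23% for lower), and 0 were higher (2.45%), with 4.69% of all genes 2-fold apart in either direction. Rasd1 was left out of these 9, because its control signal was not above background. The backgrounds include such genes as bounds, and by that rule Rasd1 had a log2 difference of at least 0.05 and the count was 2 of 10. Gem was lower by 1.82-fold by the brighter 5′ probe, by 2.63-fold by the 3′ probe and by 2.19-fold by their mean, which would make the count 3. Rnd1 was lower by 1.67-fold and Arl4d by 1.49-fold by their brighter probes. Rnd3 differed by 0.36, Rhou by 0.17 and Arl4a by -0.18 on the log2 scale. Rhob differed by 0.28 by the brighter 3′ probe, by 0.96 by the 5′ probe and by 0.62 by their mean. With signals left unscaled, where the median of all genes moved by -0.26 in unstimulated and -0.25 in stimulated cells, the unstimulated differences of Gem, Arl5b, Rnd1, Rhob and Rhou turned below 0, as did the stimulated ones of Rhob and Rhou.

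**Figure D4:**
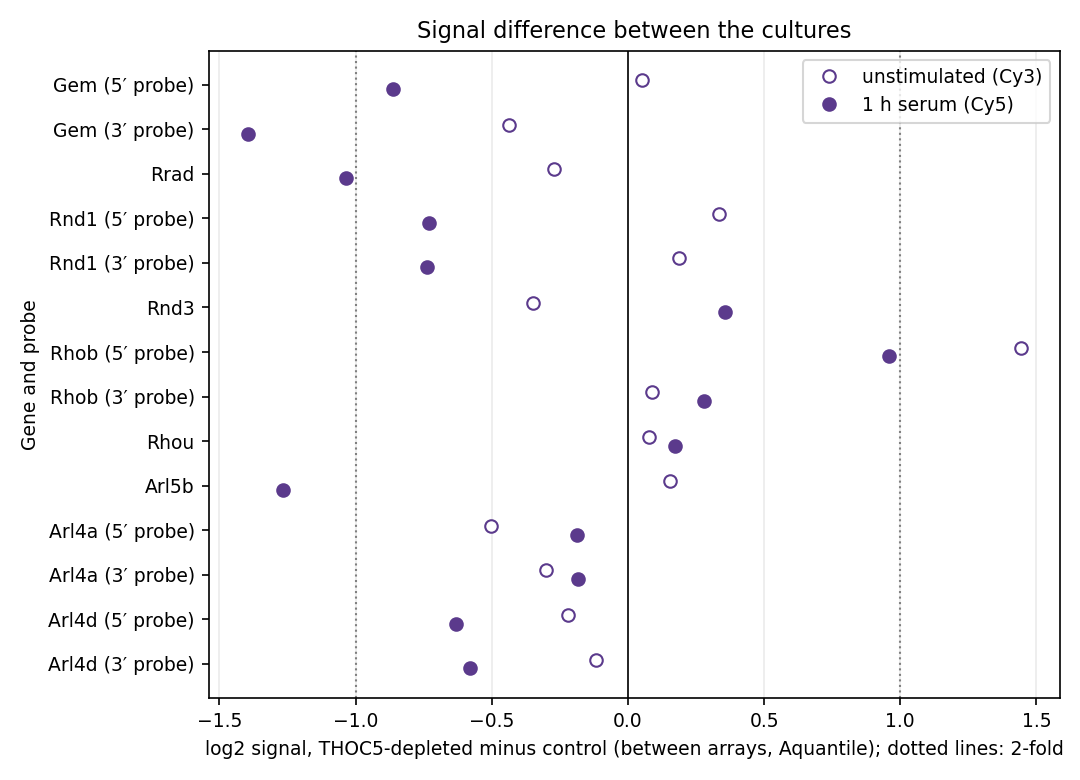
Log2 signal in THOC5-depleted minus control cells (x axis) for 14 probes, in unstimulated (open) and stimulated cells (filled), with dotted lines at 2-fold. The filled points of Gem, Rrad, Rnd1, Arl5b and Arl4d lie left of their open points, and the open point of the Rhob 5′ probe lies at 1.44.

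Closest paralogues of these genes were read in the same way. Of 10 on the array, 8 had a ratio in control cells, and 0 of the 8 reached a serum ratio of 2 in control cells or in THOC5-depleted cells. Of all genes, 2.65% did so in control and 0.955% in THOC5-depleted cells. A count of 0 among 8 therefore does not set the paralogues apart from genes in general. The log2 ratio in control cells ran from -0.19 for Rhoc to 0.76 for Rem2, another RGK gene, with a median of 0.14. Rem2, at signals of 14.1 and 23.8 in control cells, near the limit of detection, had ratios of 1.69 and 1.42. Arl5c had 1.53 and 1.57, Rhoa 1.16 and 1.17, Arl4c 1.13 and 0.996, Rnd2 1.07 and 0.786, and Rasd2 1.02 and 0.871. Arl5a, the nearest relative of Arl5b, had 0.944 and 1.11. Rem1 was above background nowhere, and Rhov in 1 channel of the THOC5-depleted array.

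Among the wider families, 0 of 23 other Ras genes and 0 of 21 other Arf and Arl genes with a ratio reached 2 in control cells. The furthest from 1 were Rasl12 (0.577), Rhebl1 (0.591) and Rheb (1.70), and Trim23 (0.561), Arl16 (0.562) and Arf5 (0.733). Of 16 partners of RGK, Arl4, Arl5 and Rasd1 proteins, 0 reached 2, and the calcium channel beta subunits bound by Gem and Rrad were Cacnb2 at 1.49 and 0.867, Cacnb1 at 0.737 and 0.757 and Cacnb3 at 0.796 and 0.908. Cacnb2 read only 27.2 and 40.5 in control and 22.2 and 19.3 in THOC5-depleted cells, near the limit of detection, and Cacnb4 was above background nowhere. The counts of 0 for the paralogues, these families and these partners were also found relative to the median of all genes when dye normalization was left out. Beside the 2.65% of all genes that reached 2 in control cells, counts of 0 in lists this short do not set them apart.

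The genes whose 2 log2 ratios were nearest to those of Gem, by distance over the 2 arrays among 17199 genes, were 3110068a07rik (4.90 and 2.56), Skil (4.79 and 2.44) and Ifrd1 (4.76 and 2.21). This likeness rests on 2 values per gene. By the numeric part of the filter in the study's methods, a ratio above 4 after rounding to 1 decimal and a stimulated signal above 200, without its annotation step, Gem and Arl5b passed in control cells and none of the 10 genes in THOC5-depleted cells, where 0.495% and 0.151% of all genes passed.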

How the data were processed

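The authors deposited the text output of Agilent Feature Extraction 10.7.3.1, per the file headers, with probe positions on mm9. What the authors deposited as processed signal is an intensity from which background was subtracted and in which the dyes were normalized (linear and LOWESS) within each array, without scaling between arrays. The authors also deposited a table of log10 ratios without their sign, used as an alternative with the scanner's sign.

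Outlier spots were left out and spots of a probe averaged on the log2 scale. A gene with several probes was read from the brightest over the 4 channels. A signal not well above background was raised to the lowest signal called so in its channel, which gives a bound, and medians cover genes measured on both arrays. Signals were compared between arrays after Aquantile normalization in limma 3.58.1 under R 4.3.3. Python 3.11.15 with numpy 2.4.6, pandas 2.3.3 and matplotlib 3.10.9 did the rest. The probe, gene and serum ratio steps were tested on simulated data made from the control signals. The comparison of signals between arrays was not part of that test.

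The genes, lists, motifs and rules were chosen with earlier results of these data known. Named beside the 10 genes were Thoc5, cell type markers, the paralogues on the array, measured or not, up to 3 genes per list with the largest control ratio in size, Cacnb4, and the 3 genes nearest to Gem. The only measure of precision within an array was the spread between spots, and 1 array per condition limits it between conditions. The CArG box was searched as its 10-letter form with 6 A or T. Some gene lists that were read are not reported here. The number of columns without a sample was 0.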

Additional observations from a re-analysis of the deposited data

Results flagged for a closer look

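Rnd3 had a log2 serum ratio of -0.63 in control cells, opposite in sign to the 0.08 in THOC5-depleted cells. Each sign rests on 1 array, and the difference was not tested.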

How the results depend on the processing

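Without dye normalization, a serum ratio of 2 was reached by 7 genes (control, 29.5% of all genes) and 9 genes (THOC5-depleted, 17.1%), 3 lost 2-fold (1.73%), and the medians were 2.06 and 1.43 (log2), but the medians of all genes moved to 0.82 and 0.75, and relative to them 5 genes reached 2 on the control (2.80% of all genes) and 4 on the THOC5-depleted array (0.945%). With the spread of log2 ratios scaled between arrays, 5 genes reached 2 in THOC5-depleted cells (2.02% of all genes), 4 in place of 5 lost 1.3-fold, the median was 1.04 and the median difference was 0.051. With spike-in centring, 1 gene reached 2 in THOC5-depleted cells (0.561% of all genes), 4 lost 2-fold (2.42%), the median was 0.51 and the median difference 0.71. Normexp and loess gave 0.58 for the median in THOC5-depleted cells. The numeric part of the study's filter passed 2 genes on the control and 0 on the THOC5-depleted array, and a ratio of 1.5 was reached by 5 genes in THOC5-depleted cells (3.48% of all genes). The 2 genes that were 2-fold apart in stimulated cells became 4 without scaling (5.29% of all genes), 4 at 1.5-fold (13.7%) and 3 by the mean of all probes of a gene. The causes were not tested. The log2 difference in serum ratio stayed above 0 for Gem (0.41 to 1.16), Rrad (0.61 to 1.01), Rnd1 (0.59 to 1.17), Arl5b (1.14 to 1.67) and Arl4d (0.051 to 0.71) under the alternatives run for each. Some alternatives could not change the values of these 5 genes and are no check on them. These were keeping outlier spots, the floor of 50, detection in all 4 channels and the probe with the largest control ratio. The 5 genes had no outlier spot, no signal below 50 and none near background, and their brighter probes already had the larger control ratio. The table of log10 ratios gave the main values too, but it is not a separate measurement. The mean of all probes cannot act on Rrad and Arl5b, which have 1 probe. No paired analysis was possible because each condition had 1 array. Low signal over background limits Rasd1, Rem2 among the paralogues and Cacnb2 among the partners.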
